A study of Mus musculus with 3 samples.

Results

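The Fc gamma receptors of the mouse and the signalling molecules behind them were examined in Ly6G+ myeloid cells of the bone marrow (BM). The 7 genes were chosen by name, as a known receptor system, with no threshold on their values, though with earlier results of these data known. They were the activating receptors Fcgr1, Fcgr3 and Fcgr4, the inhibitory receptor Fcgr2b, the signalling chain Fcer1g, the tyrosine kinase Syk and the tyrosine phosphatase Ptpn6. Each had a row among the 16072 named genes of the expression table, and 7 of 7 reached the mean of 1 FPKM used as a filter on low values. FPKM divides the number of fragments of a gene by its transcript length and by the mapped fragments of the library, so levels of different genes can be compared per length.

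The study asked how IL-27, a cytokine delivered by an adeno-associated virus (AAV) vector, alters BM myeloid cells in living animals. All mice were C57BL/6 and carried B16.F10 melanoma cells, a tumour line of the same strain, placed under the skin 1 week before the vector. AAV-Ctrl or AAV-IL-27 was then given into muscle, and cells were collected 3 weeks later. The values cover 2 AAV-Ctrl libraries and 1 AAV-IL-27 library, whereas the series text counts 4 mice in all while naming 2 AAV-Ctrl mice and 1 AAV-IL-27 mouse. The age of the mice is not given in the labels. Each library is bulk RNA of sorted cells from an animal exposed to the vector as a whole, so direct and indirect actions on these cells cannot be told apart.

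Fc gamma receptors bind the constant part of IgG antibodies and let myeloid cells take up or attack antibody-coated targets. The activating receptors pair with the Fcer1g chain, whose paired tyrosines (an ITAM) are phosphorylated by Src family kinases and then dock Syk. Fcgr2b carries a lone inhibitory tyrosine motif (an ITIM) that recruits phosphatases, chiefly the lipid phosphatase Inpp5d, while Ptpn6 serves many other ITIM receptors and dampens Syk signalling. Neutrophils use this system to respond to immune complexes.

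The stretches of coding sequence that carry these signals are shown because they define which members activate and which inhibits. They were read from the GRCm38 genome (mm10, the build named in the submitters' processing notes) with the GENCODE M21 annotation and are written 5′ to 3′ on the coding strand, with the codons of the key tyrosines in capitals. The Fcer1g stretch covers residues 65 to 79 of 86 and lies on the minus strand, in exon 4 (chr1:171230067-171230072) and exon 5 of 5 (chr1:171229889-171229927). The Fcgr2b stretch lies in the last coding exon (chr1:170961071-170961088, minus strand), at residues 317 to 322 of 340 in the longer protein. The pattern used to find the lone motif also occurred by its letters in Fcgr1, Fcgr4, Fcer1g and Ptpn6, so a match alone does not make a working ITIM.
Fcer1g ITAM: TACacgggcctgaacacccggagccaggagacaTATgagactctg
Fcgr2b ITIM: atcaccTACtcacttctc

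The libraries were alike in depth, at an estimated 18860000 to 19560000 fragments, and 8773 to 9337 genes reached 1 FPKM. For each gene, the mean log2(FPKM + 1) of AAV-Ctrl was subtracted from the value of AAV-IL-27, and this log2 difference understates the change of low genes. With 1 AAV-IL-27 library there is no replicate error for that group, so no test was made and no p-value is given. A gene counted as higher or lower only when the AAV-IL-27 library lay at least 1 log2 unit from each AAV-Ctrl library. The 9130 genes that passed the filter on low values were set against this rule and are called tested genes here. The AAV-Ctrl libraries differed from each other by a median of 0.087 log2 units, and by 0.571 at the 99th percentile. The Ly6G+ label was matched by the neutrophil genes, with Ly6g itself at 711.76 and 766.11 FPKM in AAV-Ctrl and 586.29 FPKM in AAV-IL-27.

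The 7 genes spanned a wide range of levels but kept the same order in each of the 3 libraries. From highest to lowest FPKM this order was Fcer1g, Fcgr3, Ptpn6, Syk, Fcgr4, Fcgr2b and Fcgr1, and the ranges of neighbouring genes over the 3 libraries did not overlap. Fcer1g ranked between 28 and 33 among all genes, whereas Fcgr1 ranked between 6212 and 7983. Within the receptors, Fcgr3 made up 78.1% and 76.0% of the summed receptor FPKM in AAV-Ctrl and 79.7% of it in AAV-IL-27. The transcripts of this system were thus mostly those of Fcgr3 and of the chain it signals through in all 3 libraries.

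**Figure D1:**
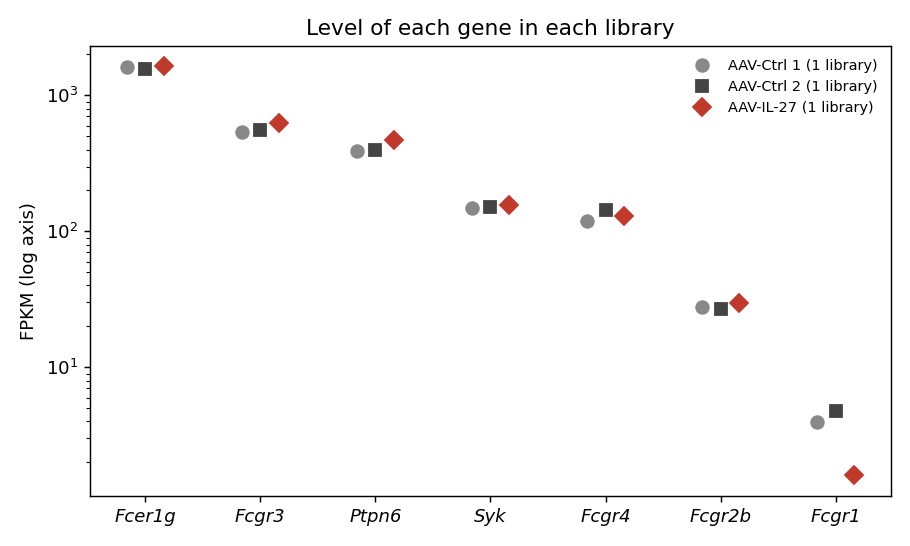
FPKM on a log axis of each of the 7 genes in each library, with 1 point per library and the AAV-Ctrl and AAV-IL-27 groups in separate colours. The points of a gene lie close together except for Fcgr1, where AAV-IL-27 sits at 1.61 FPKM below 3.94 and 4.78 FPKM in AAV-Ctrl.

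Of the 7 genes, 0 counted as higher and 0 as lower in the AAV-IL-27 library. The same rule called 0.307% of the 9130 genes higher and 2.32% lower. At a looser distance of 0.5 log2 units, 0 of 7 were higher, against 1.57% of all genes, and 1 of 7 was lower, Fcgr1, against 7.01%. Disregarding size, AAV-IL-27 lay above both AAV-Ctrl libraries for 5 of 7 genes, below both for 1 and between them for 1, while 38.9% of all genes lay above both and 41.9% below both. The median log2 difference over the 7 genes was 0.05, beside -0.01 over all genes tested.

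**Figure D2:**
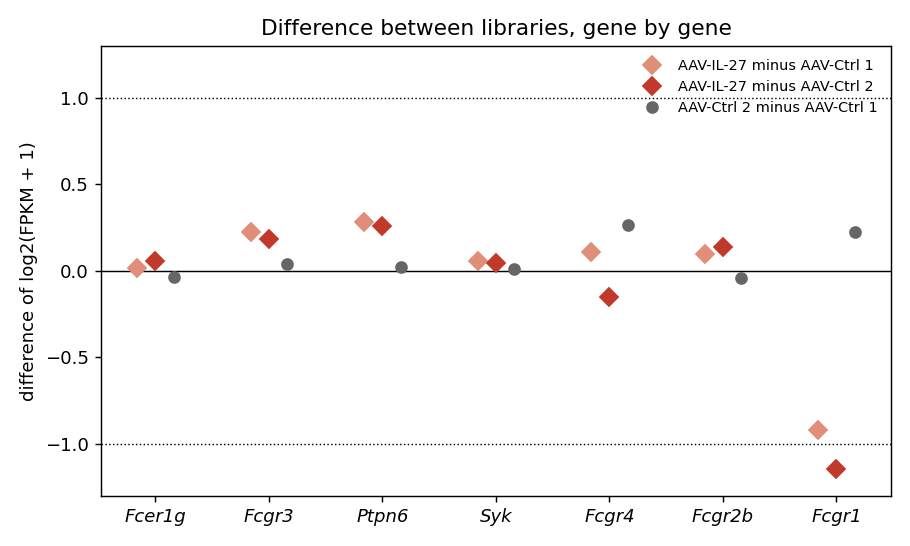
Log2 differences in log2(FPKM + 1) for each of the 7 genes, of AAV-IL-27 against each AAV-Ctrl library and, in grey, of AAV-Ctrl 2 against AAV-Ctrl 1, with dotted lines at a distance of 1. In AAV-IL-27, Fcgr1 lies at -0.92 and -1.15, and the other 6 genes lie between -0.15 and 0.28.

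Fcgr1 encodes the high-affinity receptor CD64, which binds IgG even without immune complexes and is typical of monocytes and macrophages. It lies at chr3:96282909-96293969 on the minus strand (NCBI Gene 14129). Its level was 3.94 FPKM in AAV-Ctrl 1, 4.78 FPKM in AAV-Ctrl 2 and 1.61 FPKM in AAV-IL-27. The AAV-IL-27 library was thus the low one, at 40.9% and 33.7% of the AAV-Ctrl libraries, and the groups did not overlap. The log2 difference was -1.03 from the AAV-Ctrl mean of 4.36 ± 0.594 FPKM (SD, n = 2), and it was -0.92 from the nearer AAV-Ctrl library, short of 1. Between the AAV-Ctrl libraries it was 0.23.

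Because Fcgr1 was the scarcest member, its fragments were estimated from its transcript of 2589 bases and the fitted depth. The values corresponded to about 187 and 236 fragments in AAV-Ctrl and about 78 in AAV-IL-27. Their exact 95% Poisson intervals, which cover counting error only, ran from 161 to 216, from 207 to 268 and from 61.7 to 97.3, so those of the groups did not overlap. A distance at least this large below both AAV-Ctrl libraries was found for 256 of 9130 genes (2.80%). In bulk samples, fewer cells of a type and less RNA per cell cannot be told apart, and this holds for each difference here.

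Transcripts of macrophages were low in the same library as Fcgr1. Summed over the 17 genes of a macrophage marker list, the level was 1202.04 and 1163.13 FPKM in AAV-Ctrl and 516.75 FPKM in AAV-IL-27, with no marker at 0 in any library. Of 16 tested macrophage genes, 12 were lower and 0 higher, and the median log2 difference was -1.65. C1qa, a complement gene of macrophages, was at 137.53 and 145.73 FPKM in AAV-Ctrl and 39.4 FPKM in AAV-IL-27. Not every macrophage gene was low, since Csf1r, shared with monocytes, was at 98.5% and Adgre1 at 83.2% of the AAV-Ctrl mean. The part of macrophage transcripts in the Fcgr1 value was not tested.

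The promoters of the 7 genes were read from RefSeq (GRCm38.p6), from 250 bases before to 50 after each start, and all 7 were matched. They were searched on both strands for TTCNNNGAA, the letters of a STAT site, and for GAAA followed after any 2 bases by another GAAA, the letters of an interferon response element. IL-27 signals through STAT proteins, which is why these letters were searched. The first was present in 8.30% and the second in 3.44% of 32851 promoters. Fcgr1 held the first motif 109 bases before its start (chr3:96294070-96294078, minus strand), Fcgr4 held the second 73 bases before its start (chr1:171018853-171018862, plus strand), and the other 5 genes held neither in this window. The matches, in capitals, are shown with their flanks from chr3:96294040-96294108 and chr1:171018823-171018892, and a match describes letters, not a bound site.
Fcgr1 promoter: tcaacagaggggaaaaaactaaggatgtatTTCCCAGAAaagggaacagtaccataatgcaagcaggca
Fcgr4 promoter: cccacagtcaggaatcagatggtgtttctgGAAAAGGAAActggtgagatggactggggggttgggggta

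Fcgr4 encodes an activating receptor of intermediate affinity found on neutrophils and monocytes (chr1:171018920-171029761, plus strand, NCBI Gene 246256). Its level was 119.57 FPKM in AAV-Ctrl 1, 143.59 FPKM in AAV-Ctrl 2 and 128.96 FPKM in AAV-IL-27. The AAV-IL-27 library lay between the AAV-Ctrl libraries, which differed from each other by 0.26 log2 units. The log2 difference was -0.02 from the AAV-Ctrl mean of 131.58 ± 17 FPKM (SD, n = 2), smaller than that spread.

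Fcgr3 encodes the low-affinity activating receptor CD16, the main activating Fc gamma receptor transcript of these cells (chr1:171051174-171064935, minus strand, NCBI Gene 14131). Its level was 539.72 FPKM in AAV-Ctrl 1, 555.37 FPKM in AAV-Ctrl 2 and 629.95 FPKM in AAV-IL-27. AAV-IL-27 was the highest library and lay 0.22 and 0.18 log2 units above the AAV-Ctrl libraries, which were 0.04 apart. Its level was 115% of the AAV-Ctrl mean of 547.5 ± 11.1 FPKM (SD, n = 2), and 983 of 9130 genes (10.8%) lay at least as far above both.

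Fcgr2b encodes CD32B, the inhibitory Fc gamma receptor (chr1:170958617-170976547, minus strand, NCBI Gene 14130), whose ITIM is printed above. Its level was 27.65 FPKM in AAV-Ctrl 1, 26.78 FPKM in AAV-Ctrl 2 and 29.6 FPKM in AAV-IL-27. The AAV-IL-27 value was the highest, 0.12 log2 units above the AAV-Ctrl mean of 27.2 ± 0.615 FPKM (SD, n = 2), and 21.5% of genes lay at least as far above both. Fcgr2b was thus a scarce transcript beside Fcgr3, with 3.67% to 4.00% of the summed receptor FPKM over the 3 libraries.

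The balance of summed activating to inhibitory transcripts lay within the AAV-Ctrl range, though single pairs differed. The summed FPKM of Fcgr1, Fcgr3 and Fcgr4 was 24.0 and 26.3 times that of Fcgr2b in AAV-Ctrl and 25.7 times it in AAV-IL-27. The ratio of Fcgr3 to Fcgr4 was 4.51 and 3.87 in AAV-Ctrl, beside 4.88 in AAV-IL-27, the highest of the 3. Fcgr1 to Fcgr2b was low in AAV-IL-27, at 0.142 and 0.178 in AAV-Ctrl, beside 0.0544 in AAV-IL-27.

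Fcgr3 and Fcgr2b share sequence in their extracellular parts, so fragments from there could be assigned to either gene by the authors' counting and the values of both are uncertain to that extent. Of 1298 stretches of 50 bases in the Fcgr3 transcript, 166 (12.8%) occurred exactly in another gene, in each case Fcgr2b, and these were 11.7% of the 1413 stretches in the shorter Fcgr2b transcript. The longer Fcgr2b transcript shared 436 of its 3495 stretches (12.5%) with 145 other genes in all, so the Fcgr2b value is uncertain beyond its overlap with Fcgr3. Fcgr1, Fcgr4, Fcer1g and Syk shared 0 such stretches with another gene. The longest shared run, 129 coding bases, is shown because it marks where the genes cannot be told apart. In Fcgr3 it lies in exons 3 and 4 of 5 (chr1:171057691-171057792 and chr1:171054167-171054193) and in Fcgr2b in exons 3 and 4 of 8 (chr1:170967980-170968081 and chr1:170966674-170966700), all on the minus strand.
Fcgr3 and Fcgr2b: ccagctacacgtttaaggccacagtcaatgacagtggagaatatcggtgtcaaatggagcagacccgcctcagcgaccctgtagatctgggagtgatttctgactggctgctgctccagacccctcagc

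Fcer1g encodes the chain that the activating receptors need for surface display and signalling (chr1:171229572-171234365, minus strand, NCBI Gene 14127). Its level was 1614.35 FPKM in AAV-Ctrl 1, 1574.02 FPKM in AAV-Ctrl 2 and 1634.95 FPKM in AAV-IL-27. These values were close, with AAV-IL-27 highest and 0.04 log2 units above the AAV-Ctrl mean, about the same distance as the 0.04 that separated the AAV-Ctrl libraries. Per unit of activating receptor transcript, Fcer1g stood at 2.43 and 2.24 in AAV-Ctrl, beside 2.15 in AAV-IL-27. The level of the chain thus exceeded the summed level of its Fc gamma receptors in each library, and the chain also serves other receptors.

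Fcer1g and 3 of the receptors, Fcgr2b, Fcgr4 and Fcgr3, lie within 276 kb of chromosome 1 (chr1:170958617-171234365), a stretch with 11 protein-coding genes in the annotation. The 7 other genes there do not belong to the receptor system. Of these, Sdhc, a subunit of mitochondrial complex II, was at 27.12 and 30.7 FPKM in AAV-Ctrl and 23.51 FPKM in AAV-IL-27. It was the only neighbour with a mean of at least 1 FPKM, since the others were lower or had no row in the table.

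Syk encodes the kinase that binds the phosphorylated ITAM and passes the signal on (chr13:52583173-52648792, plus strand, NCBI Gene 20963). Its level was 149.67 FPKM in AAV-Ctrl 1, 150.51 FPKM in AAV-Ctrl 2 and 155.49 FPKM in AAV-IL-27. AAV-IL-27 lay above both by 0.05 log2 units, with the AAV-Ctrl libraries 0.01 apart, and 30.1% of genes lay at least as far above both.

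Ptpn6 encodes SHP-1, a tyrosine phosphatase that limits signalling from many myeloid receptors (chr6:124720707-124738714, minus strand, NCBI Gene 15170). Its level was 389.44 FPKM in AAV-Ctrl 1, 395.14 FPKM in AAV-Ctrl 2 and 473.89 FPKM in AAV-IL-27. AAV-IL-27 was the highest library, at 121% of the AAV-Ctrl mean of 392.29 ± 4.03 FPKM (SD, n = 2). The log2 difference of 0.27 was the largest positive one of the 7 genes, yet 539 of 9130 genes (5.90%) lay at least as far above both. The ratio of Ptpn6 to Syk was 2.60 and 2.63 in AAV-Ctrl, beside 3.05 in AAV-IL-27. An antisense gene, Gm20531, overlaps Ptpn6 and holds 152 of its 2170 stretches of 50 bases (7.0%), and whether counting used strand is not given in the sources used here.

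**Figure D3:**
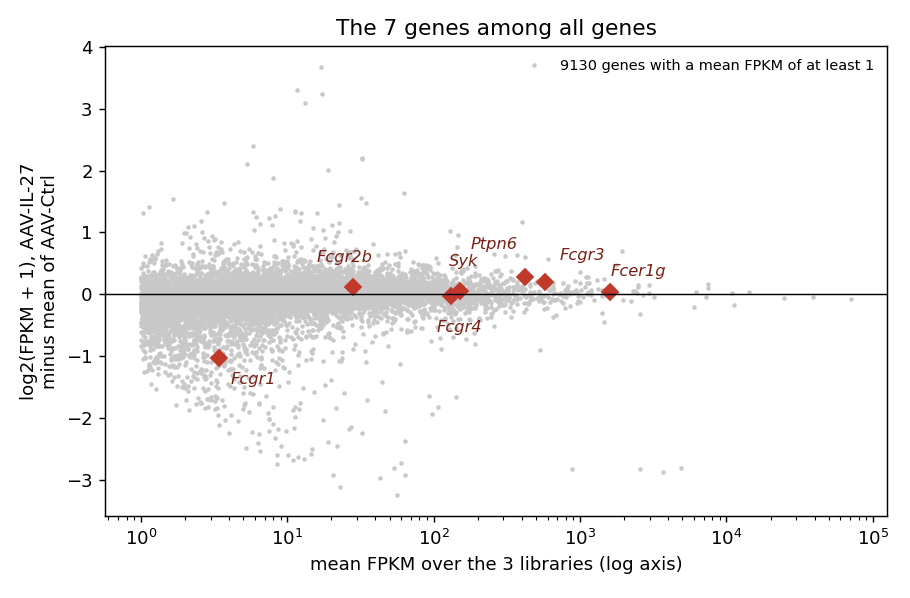
Mean FPKM against the log2 difference of AAV-IL-27 from the AAV-Ctrl mean for all tested genes in grey, with the 7 genes marked. Fcgr1 lies at -1.03 on the log2 scale and the other 6 between -0.02 and 0.27.

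The genes around these receptors were grouped into 6 lists by role, with 110 genes listed, 105 in the table and 87 tested. Of these 87, 1 was higher and 4 were lower, and the median log2 difference was 0.02.

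The other antibody receptors were mostly scarce, with 5 of 14 listed genes tested. Of these 5, 3 were lower and 0 higher, with a median of -1.32. This median depended on the low genes, since it was -0.087 over the 11 genes in the table without the filter and -2.38 and -2.53 with pseudocounts of 0.1 and 0.01. Fcgrt, the neonatal Fc receptor that recycles IgG, was at 14.31 and 16.2 FPKM in AAV-Ctrl and 2.62 FPKM in AAV-IL-27. Its log2 difference was -2.16. Fcmr, the IgM receptor of B cells, was at 3.33 and 3.49 FPKM in AAV-Ctrl and 0.29 FPKM in AAV-IL-27. Fcrla, an intracellular protein of B cells, was at 2.03 and 2.95 FPKM in AAV-Ctrl and 0.39 FPKM in AAV-IL-27. Not every listed gene was low. Trim21, the cytosolic antibody receptor, was at 6.29 and 7.56 FPKM in AAV-Ctrl and 6.93 FPKM in AAV-IL-27. Fcrl1 was at 7.33 and 7.78 FPKM in AAV-Ctrl and 7.05 FPKM in AAV-IL-27, or 93.3% of the AAV-Ctrl mean. B cell markers were low in the same library, summing to 29.99 and 39.97 FPKM in AAV-Ctrl and 4.7 FPKM in AAV-IL-27, with 5 of 5 tested genes lower (median -1.87, or -2.87 with a pseudocount of 0.1 and -2.94 with 0.01). Macrophage markers were low there too, with 12 of 16 tested genes lower and a median of -1.65. The part of either cell type in the values of these antibody receptors was not tested.

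The Src family kinases and their regulators, which phosphorylate the ITAM, had 0 of 8 tested genes higher and 0 lower, with a median of -0.05 (-0.13 without the filter). Lyn was at 163.83 and 163.72 FPKM in AAV-Ctrl and 162.81 FPKM in AAV-IL-27. Fgr was at 281.41 and 272.04 FPKM in AAV-Ctrl and 278.21 FPKM in AAV-IL-27.

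The adaptors and enzymes below Syk had 0 of 25 tested genes higher and 1 lower, with a median of -0.00. The lower gene was Vav2, a guanine nucleotide exchange factor, at 2.4 and 2.43 FPKM in AAV-Ctrl and 0.68 FPKM in AAV-IL-27. Abundant members lay near their AAV-Ctrl values, such as the GTPase Rac2 at 1036.18 and 1085.37 FPKM in AAV-Ctrl and 1029.33 FPKM in AAV-IL-27. The GTPase Cdc42 was at 477.82 and 458.86 FPKM in AAV-Ctrl and 461.57 FPKM in AAV-IL-27.

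The inhibitory enzymes and adaptors, the partners of Ptpn6 and Fcgr2b, had 0 of 9 tested genes higher and 0 lower, with a median of 0.12 (0.062 without the filter). Inpp5d, the lipid phosphatase recruited by Fcgr2b, was at 80.22 and 84.0 FPKM in AAV-Ctrl and 90.34 FPKM in AAV-IL-27. Dok3, an adaptor that limits signalling, was at 324.15 and 355.43 FPKM in AAV-Ctrl and 367.87 FPKM in AAV-IL-27. The list was not uniform, since 6 of the 9 lay above both AAV-Ctrl libraries and 2 below both, beside 38.9% and 41.9% of all genes. The inhibitory receptors with ITIMs had 0 of 18 tested genes higher and 0 lower, with a median of -0.01. At 0.5 log2 units, 2 of the 18 were lower, the inhibitory receptors of B cells Cd22 (1.96 and 2.58 FPKM in AAV-Ctrl and 0.57 FPKM in AAV-IL-27) and Cd72 (1.34 and 2.67 FPKM in AAV-Ctrl and 0.61 FPKM in AAV-IL-27). Cd33, an abundant myeloid receptor, was at 336.08 and 278.85 FPKM in AAV-Ctrl and 397.52 FPKM in AAV-IL-27. Pirb, a receptor that signals through Ptpn6, was at 457.69 and 437.06 FPKM in AAV-Ctrl and 442.89 FPKM in AAV-IL-27.

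The other activating receptors and adaptors that use Fcer1g or Tyrobp had 1 of 22 tested genes higher and 0 lower, with a median of 0.09. The higher gene was Clec4n, which encodes the fungal receptor Dectin-2 that signals through Fcer1g, at 20.67 and 9.1 FPKM in AAV-Ctrl and 66.76 FPKM in AAV-IL-27. It lay 1.64 and 2.75 log2 units above the AAV-Ctrl libraries. Tyrobp, an ITAM chain like Fcer1g, was at 2355.98 and 2449.3 FPKM in AAV-Ctrl and 2675.36 FPKM in AAV-IL-27.

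**Figure D4:**
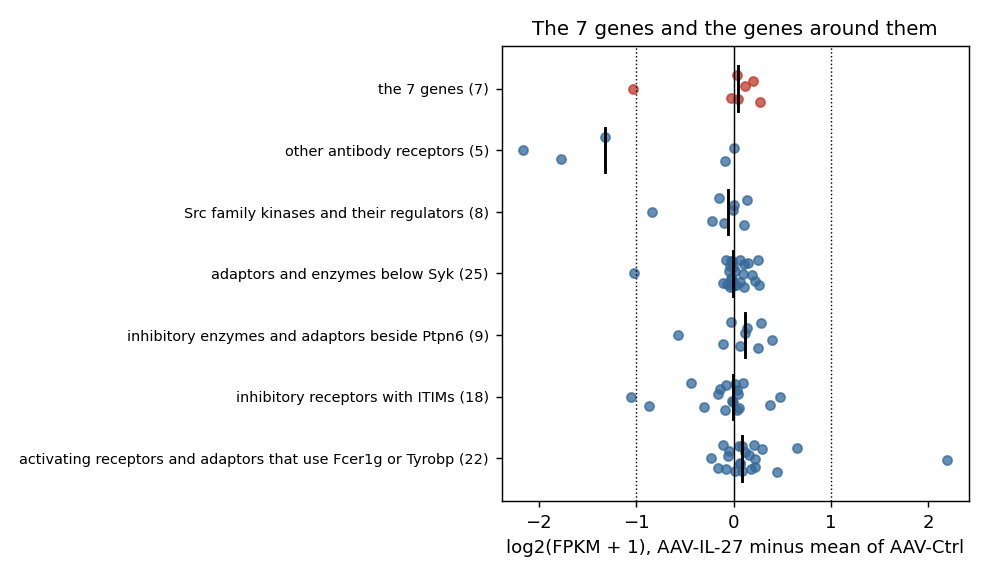
Log2 difference of AAV-IL-27 from the AAV-Ctrl mean for the 7 genes and for the 6 lists around them, with 1 point per tested gene and a black bar at each median. The 5 tested other antibody receptors have a median of -1.32, and Clec4n is the point at 2.20.

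A list of 17 interferon response genes, of which 16 were tested, was compared because Fcgr1 is known to be raised by interferon. Of the 16, 1 was higher and 0 lower at a distance of 1, beside 0.307% and 2.32% of all genes. At 0.5 log2 units, 7 were higher and 1 lower, beside 1.57% and 7.01% of all genes. Disregarding size, 15 of the 16 lay above both AAV-Ctrl libraries and 1 below both, beside 38.9% and 41.9% of all genes. Cd274, which encodes the ligand PD-L1, was the gene higher at a distance of 1. It was at 5.44 and 5.62 FPKM in AAV-Ctrl and 15.92 FPKM in AAV-IL-27. The median of the list was 0.60, or 0.40 without AAV-Ctrl 1, whereas Fcgr1 stood at -1.03. Between the AAV-Ctrl libraries the median of the list was 0.19.

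The other marker lists differed in size in the AAV-IL-27 library. Markers of mature neutrophils summed to 175988 and 171671 FPKM in AAV-Ctrl and 166730 FPKM in AAV-IL-27, with 0 of 11 genes higher or lower. Monocyte markers summed to 1221.46 and 1283.84 FPKM in AAV-Ctrl and 1369.9 FPKM in AAV-IL-27, with 0 of 11 higher or lower. Most of this sum was Ly6c2, at 1023.13 and 1086.23 FPKM in AAV-Ctrl and 1145.19 FPKM in AAV-IL-27. At 0.5 log2 units, 2 of the 11 were higher and 0 lower, beside 1.57% and 7.01% of all genes. Disregarding size, 7 of the 11 lay above both AAV-Ctrl libraries and 2 below both, beside 38.9% and 41.9% of all genes. Early neutrophil granule genes summed to 74.93 and 87.42 FPKM in AAV-Ctrl and 98.34 FPKM in AAV-IL-27, with 0 of 6 higher or lower. Disregarding size, 5 of these 6 lay above both AAV-Ctrl libraries and 1 below both. Of the 11 mature neutrophil genes, 2 lay above both and 6 below both, again beside 38.9% and 41.9% of all genes. These lists of the sorted lineage and its relatives thus held no gene past the distance of 1 from each AAV-Ctrl library, though smaller differences were present.

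Lists of other lineages were lower in part. Erythroid markers summed to 14751.5 and 9868.29 FPKM in AAV-Ctrl and 1680.15 FPKM in AAV-IL-27, with 8 of 8 tested genes lower. Megakaryocyte and platelet markers summed to 53.72 and 60.19 FPKM in AAV-Ctrl and 9.61 FPKM in AAV-IL-27, where Gp6 was listed at 0, and 3 of 5 tested genes were lower. Eosinophil markers summed to 34.28 and 35.1 FPKM in AAV-Ctrl and 21.35 FPKM in AAV-IL-27, with 1 of 5 tested genes lower. The remaining lists rested on few tested genes, with 0 higher and 0 lower in each.

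T cell markers (2 tested) summed to 12.9 and 11.99 FPKM in AAV-Ctrl and 10.47 FPKM in AAV-IL-27. NK cell markers (1 tested) summed to 2.9 and 5.47 FPKM in AAV-Ctrl and 5.6 FPKM in AAV-IL-27, with Klra8 at 0 in all 3 libraries. NK cells carry Fcgr3, and mast cells, basophils and platelets use Fcer1g. Mast cell and basophil markers (3 tested) summed to 12.17 and 16.15 FPKM in AAV-Ctrl and 13.69 FPKM in AAV-IL-27, with Cma1 at 0 in both AAV-Ctrl libraries and Fcer1a at 0 in 1 of them. Dendritic cell markers (3 tested) summed to 63.33 and 84.04 FPKM in AAV-Ctrl and 72.84 FPKM in AAV-IL-27. The part of these cells in the values of the 7 genes was not tested.

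**Figure D5:**
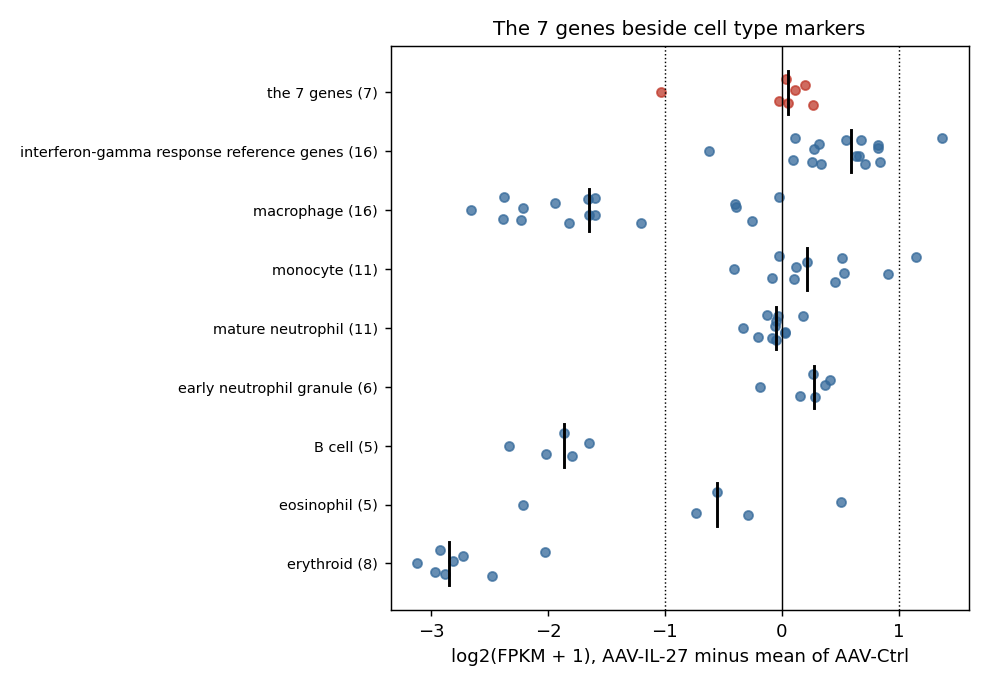
Log2 difference of AAV-IL-27 from the AAV-Ctrl mean for the 7 genes, the interferon response genes and part of the cell type marker lists. The marker lists shown are those of macrophages, monocytes, mature neutrophils, early neutrophil granules, B cells, eosinophils and erythroid cells. Each point is 1 tested gene, and a black bar marks each median. Macrophage markers have a median of -1.65, erythroid markers of -2.84 and mature neutrophil markers of -0.05, while the 7 genes lie at a median of 0.05.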

How the data were processed

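The listed samples are RNA of Ly6G+ BM cells from 2 AAV-Ctrl mice and 1 AAV-IL-27 mouse. The authors enriched mRNA with oligo-dT, marked strands with dUTP, sequenced on the DNBSEQ platform and deposited FPKM values with 2 decimals. The submitters' processing notes name build mm10. The aligner and quantifier are not given in the sources used here. In the table, 1 column of per-sample values, named as a further AAV-IL-27 library, belonged to no listed sample and stayed unused. Of 16073 rows, 1 has no symbol and was left out.

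The members and gene lists were chosen with earlier results of these data known. The lists cover 6 groups of pathway genes, interferon response genes and 12 cell types. Differences used log2(FPKM + 1), a pseudocount of 1, a mean FPKM of at least 1 and a distance of 1 or 0.5 log2 units from each AAV-Ctrl library. Genes named are the 7 members, the called genes of each pathway list and up to 4 others of largest mean FPKM, and up to 4 genes of each other list. A gene that this rule names is not reported here. Csf1r, Adgre1, Ly6g, Cd274, Sdhc, Cd22, Cd72 and the markers named as at 0 were chosen after their values were seen.

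The deposited FPKM hold no counts. Depth was estimated from the steps of 260 to 285 low values per library over 10934 genes with 1 transcript, 70 bases being subtracted from each length, and 71.2% to 76.8% of these values fell within 15% of a whole fragment, so fragments are approximate and counts were not tested. Positions come from GENCODE M21 (GRCm38). The alternatives were pseudocounts of 0.1 and 0.01, other filters, a distance of 0.5, rescaling by median ratios or to equal FPKM totals, and omitting either AAV-Ctrl library. The calculations, checked on simulated data, ran in Python 3.11.15 with pandas 2.3.3, numpy 2.4.6 and scipy 1.17.1, and figures were drawn with matplotlib 3.10.9.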

Additional observations from a re-analysis of the deposited data

How the results depend on the processing

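All values rest on 1 AAV-IL-27 library, and variation between AAV-IL-27 mice is unknown. No paired analysis was possible because only number 2 occurs in both groups. Over the alternatives run, log2 differences ranged from -1.42 to -0.92 for Fcgr1, 0.18 to 0.24 for Fcgr3, 0.09 to 0.16 for Fcgr2b, 0.02 to 0.08 for Fcer1g, 0.05 to 0.09 for Syk and 0.26 to 0.31 for Ptpn6. Fcgr1 counted as lower, giving 1 lower member in place of 0, with pseudocounts of 0.1 and 0.01, with equal FPKM totals, at 0.5 log2 units and without AAV-Ctrl 1, so that leaving out a library gave 0 to 1. Fcgr4, at -0.02, was 0.018 with equal totals and -0.15 to 0.11 when either AAV-Ctrl library was left out.

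The 212 lower genes became 396 with a pseudocount of 0.1, 425 with 0.01, 93 at a mean FPKM of at least 5 and 640 at 0.5 log2 units. They became 315 with equal FPKM totals, 210 with median ratios and 243 to 294 when either AAV-Ctrl library was left out. Equal totals raised the FPKM values of each library while the pseudocount stayed at 1, so the pseudocount weighed less in that setting. The 28 higher genes became 46 with a pseudocount of 0.01, 143 at 0.5 log2 units and 40 to 49 when either AAV-Ctrl library was left out. They became 42 with a pseudocount of 0.1 and also with equal FPKM totals. Among the lists, signs turned in those with medians near 0 or few genes. Under equal totals and median ratios in turn, the median was 0.037 and 0.0050 for the adaptors below Syk and 0.033 and 0.00083 for the ITIM receptors. Leaving out either AAV-Ctrl library gave 0.0041 to 0.0085 for these adaptors, -0.052 to 0.026 for the ITIM receptors, -0.14 to 0.53 for NK cell, -0.17 to 0.49 for dendritic cell and -0.27 to 0.052 for mast cell and basophil markers. Without a filter the dendritic cell median was -0.050. The cause was not tested.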
